A study of Mus musculus with 18 samples.

Results

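The genes described here are 37 genes that build or switch on the motile cilia of ependymal cells, the cells that line the brain ventricles. They were read from the probe sets whose platform annotation names exactly 1 of the listed symbols or a synonym of it, and the value of a gene on an array is the median log2 value of its probe sets. Of the 37 listed genes 35 were measured, among 20352 genes with a value, and 34 of them entered the tests among 16281 genes tested. Armc4, an outer dynein arm docking protein, stayed out of the tests because its mean log2 value of 3.12 lay under the filter level of 3.41 below which the dimmest 20% of genes fall. Just inside that level were Spag17 at 3.45, Iqca at 3.51 and Spag16 at 3.52. Dnah3 and Dnah7a were not measured. All 4 probe sets of Dnah7a are shared with Dnah7b, and the array name Dnahc3, with 61 probe sets, is an old synonym of both Dnah3 and Dnah12.

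The 18 arrays carry RNA from the caudal corpus callosum of C57BL/6 mice, wild type (WT) or lacking the microglial receptor gene Trem2 (TREM2-/-, here KO). All groups were fed 0.2% cuprizone (CPZ), a copper-binding compound whose intake strips the tract of myelin, so no array shows the tissue without CPZ. The groups are WT at 6 weeks (n = 4), KO at 6 weeks (n = 3), WT at 12 weeks (n = 5) and KO at 12 weeks (n = 6). The labels describe the weeks as the age of the mice, while the treatment protocol gives ages of 6 to 12 weeks and feeding for 4, 6 or 12 weeks, so the meaning of the stage is not settled. The knockout allele is not described further, and nothing in the labels says whether each array is a separate mouse or a pool. The p-values below therefore reflect only how these samples scatter, and that scatter may be technical.

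A motile cilium beats because dynein motors on its ring of microtubule doublets slide them past each other, while radial spokes, nexin links and a central pair of microtubules turn the sliding into a regular stroke. Ependymal cells carry tufts of such cilia and move cerebrospinal fluid with them. The forkhead factor Foxj1 and the factors Rfx2 and Rfx3, which bind X-box motifs, switch the genes on. The corpus callosum is the roof of the lateral ventricles, so dissected callosal tissue can hold ependyma and choroid plexus, whose epithelium also has cilia.

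Because these regulators are among the listed genes, the 250 bases before the start of each gene were searched for their motifs in the RefSeq promoter table (mouse build GRCm38.p6). The search covered 31 of the 37 listed genes. Armc4, Dnah3, Foxj1, Lrrc6, Rsph1 and Rsph4a were not among the promoters searched. The X-box core GTTGCC, on either strand, was present in 13 of the 31 (41.9%) against 11.8% of the 27025 genes searched. The full X-box, GTTNCC and its mirror GGNAAC with 2 free bases between, was present in 1 (3.23%), Iqca, where it overlaps the core, against 0.444% of genes. The forkhead motif TGTTTAC was present in 1 (3.23%), Ak7, against 3.54% of genes, and TGTTTGT in 0 of 31 against 6.73% of genes. Of the 15 searched genes that followed the rest of the set most closely over the arrays, 4 held the core. Most closely means a correlation of at least 0.85, as described further on. These 4 and Ak7 are shown as stretches of 100 bases on the strand of the gene, 5′ to 3′, with the matches in capitals. A core on the opposite strand reads GGCAAC. A match is a string of letters and not a measured binding site.

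Spag16, chr1:69826816-69826915, plus strand: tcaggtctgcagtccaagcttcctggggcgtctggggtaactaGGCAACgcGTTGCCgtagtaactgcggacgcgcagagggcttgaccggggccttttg
Iqca, chr1:90153480-90153579, minus strand: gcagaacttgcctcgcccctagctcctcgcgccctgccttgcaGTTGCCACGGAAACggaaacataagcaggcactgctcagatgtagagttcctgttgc
Hydin, chr8:110266877-110266976, plus strand: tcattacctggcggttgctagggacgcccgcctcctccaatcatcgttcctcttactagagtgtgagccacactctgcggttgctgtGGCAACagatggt
Ccdc113, chr8:95534000-95534099, plus strand: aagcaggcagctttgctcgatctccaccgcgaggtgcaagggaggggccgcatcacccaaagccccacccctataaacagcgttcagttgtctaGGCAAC
Ak7, chr12:105705804-105705903, plus strand: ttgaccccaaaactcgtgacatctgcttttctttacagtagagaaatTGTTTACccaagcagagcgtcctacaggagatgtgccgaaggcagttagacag

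Spag16 has the core on both strands, 2 bases apart, and the Hydin and Ccdc113 matches lie within the last 13 bases before the start.

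Some facts hold for all arrays. Trem2, the gene removed in the KO, read 6.44 to 8.43 on the 4 WT arrays and 5.42 to 6.05 on the 3 KO arrays of 6 weeks. At 12 weeks it read 6.83 to 7.86 in WT and 4.79 to 5.59 in KO, so every array went with its label. The deposited annotation does not say whether its probe sets lie in the deleted part. Myelin genes were present on every array, with Mbp at 8.11 to 11.58 and Trf at 8.14 to 11.75. Neuronal genes were as well, with Snap25 at 8.80 to 11.28, so the tissue was not white matter alone. In RNA from whole tissue, fewer cells of a type and less RNA per cell cannot be told apart. Sex, inferred from Xist and the genes of the Y chromosome, was mixed in every group.

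The motile cilia genes followed single arrays as well as groups. A score for each array, the mean over the 35 measured genes of the log2 value minus the gene's own mean over 18 arrays, was 1.44 on WT replicate 4 of 6 weeks. The other WT arrays of 6 weeks scored -0.26, -0.53 and -0.37. The KO arrays of 6 weeks scored 0.02, -0.36 and -0.25. The group of WT at 6 weeks was thus 1 very high array and 3 low ones, and the 3 KO arrays of that stage lay between the lowest WT array and the very high one. At 12 weeks the WT arrays scored -0.48, -0.25, -0.30, -0.38 and 0.04. The KO arrays scored -0.03, -0.17, 0.08, 0.42, 1.07 and 0.30. All KO arrays of 12 weeks lay above 4 of the 5 WT arrays, and WT replicate 5 fell among the lower KO arrays. The group means were 0.07 ± 0.92 (SD, n = 4), -0.19 ± 0.20 (n = 3), -0.28 ± 0.19 (n = 5) and 0.28 ± 0.44 (n = 6) in the order given above.

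**Figure D1:**
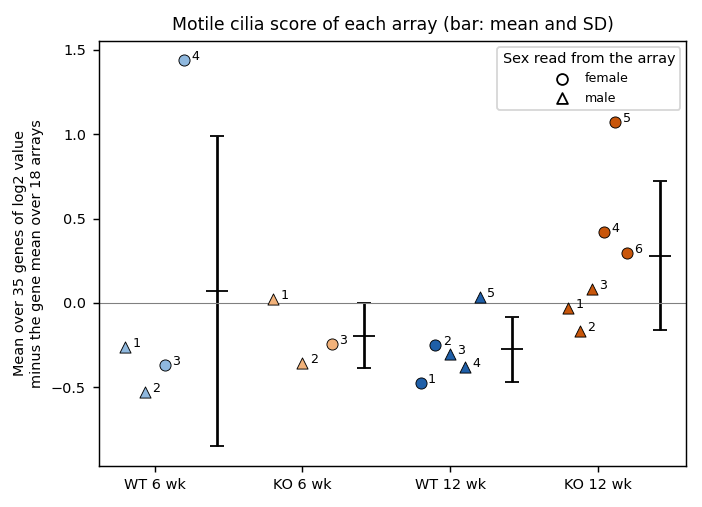
Motile cilia score of each array (vertical axis: mean over 35 genes of log2 value minus the gene's mean over 18 arrays), with replicate numbers beside the points and, to the right of each group, its mean and SD. WT replicate 4 of 6 weeks stands at 1.44 and KO replicate 5 of 12 weeks at 1.07; every other array lies between -0.53 and 0.42. Circles are arrays read as female and triangles arrays read as male.

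On WT replicate 4 of 6 weeks all 35 measured genes were above their own mean, and 21 of them had their highest value there, against 9.82% of all genes. On KO replicate 5 of 12 weeks 32 of 35 were above their mean and 6 had their highest value, against 5.44% of all genes. Their highest or second highest value fell on the WT array for 30 genes and on the KO array for 25. The share of all genes for this last count was not taken. Both arrays were singled out by the score of these same genes, so high counts there are partly built in. By role, the WT array stood 2.51 above the mean for Tmem212, Ccdc113 and Ak7 together, 2.05 for the dynein arm assembly factor Lrrc6 and 1.94 for the 3 radial spoke genes. The 5 central pair genes followed at 1.91 and the 3 outer dynein arm heavy chains at 1.67. The regulators Foxj1, Rfx2 and Rfx3 together were 0.34 above their mean on that array and 0.073 on KO replicate 5. The 0.34 was their highest value of all arrays, close to 0.339 on KO replicate 4 of 12 weeks.

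**Figure D2:**
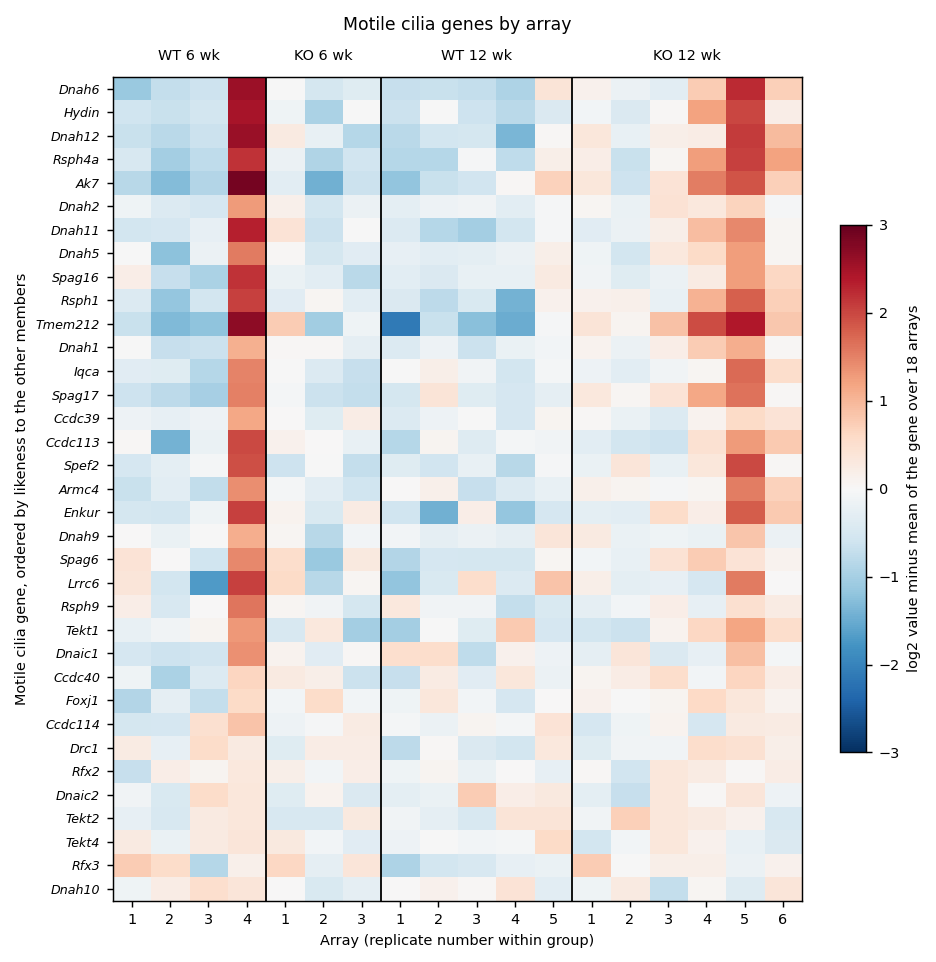
Log2 value minus the gene's mean over 18 arrays (colour, from blue for lower to red for higher) for the 35 measured genes in rows, ordered by their likeness to the other genes, and the arrays in columns by group. The column of WT replicate 4 of 6 weeks is red for all 35 genes and that of KO replicate 5 of 12 weeks for 32; the bottom rows, among them Rfx3 and Dnah10, do not follow these columns.

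At 12 weeks the motile cilia genes were on balance higher in KO than in WT, but none passed the test. The median log2 difference over the 35 measured genes was 0.43, against 0.017 over all genes tested, with 30 genes higher in KO and 5 lower (52.4% of all genes tested were higher). The test was limma with Benjamini-Hochberg adjustment over all 16281 genes and a threshold of 0.05. It called 0 of the 34 genes tested, where it called 70 genes in all (0.43%). At an unadjusted p under 0.05, 10 of 34 genes were higher (29.4%), against 6.87% of all genes, and 0 were lower, against 4.23%. The 10 include Spag17, which entered the test only through KO at 12 weeks, so its place among them supports nothing. This count of 10 moved with single arrays. It was 4 without WT replicate 1 or 4 or KO replicate 5 of 12 weeks, 5 without KO replicate 4, 6 without WT replicate 2 or 3, and 15 without WT replicate 4 of 6 weeks. The arrays of the 2 genotypes did not overlap for Tmem212 and Rfx3, 2 of 34 genes (5.88%), where 1.7% of all genes were higher in KO without overlap.

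Tmem212, a transmembrane protein found in ciliated cells whose function is not settled, had the widest difference of the set. It read 4.03, 5.50, 4.90, 4.67 and 6.11 on the WT arrays of 12 weeks and 6.23, 7.01 and 8.56 (lowest, median and highest) on the 6 KO arrays. Every KO array was above every WT array. The log2 difference was 2.20 ± 0.61 (SE), or 4.60-fold, with an adjusted p of 0.14 in limma. Its 4 probe sets were all higher in KO, by 1.32 to 3.26. The call depended on arrays and settings: Tmem212 passed without WT replicate 4 of 6 weeks, an array on which it read 8.84 (adjusted p = 0.017 in limma), and when only the groups of 12 weeks were fitted (limma adjusted p = 0.014).

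Rsph1, a radial spoke head protein, read 5.72, 5.35, 5.68, 4.73 and 6.27 on the WT arrays of 12 weeks and 5.92, 6.57 and 7.93 (lowest, median, highest) on the KO arrays. The KO arrays were mostly higher, and the groups overlapped through WT replicate 5. The log2 difference was 1.19 ± 0.45 (SE), with an adjusted p of 0.32 in limma. Enkur, a microtubule inner protein, differed by 1.16 ± 0.44 (SE; limma adjusted p = 0.33), also with overlap. Rfx3 read 6.46 to 7.18 in WT and 7.21 to 8.16 in KO, a difference of 0.66 ± 0.25 (SE) with an adjusted p of 0.34 in limma. Its WT and KO arrays did not overlap, though the highest WT and lowest KO values lay close together.

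The other roles showed the same leaning at 12 weeks in unequal measure. Among the inner arm dynein heavy chains, the motors that shape the bend, the log2 differences were 1.24 for Dnah12, 1.09 for Dnah6, 0.64 for Dnah1, 0.39 for Dnah2 and -0.14 for Dnah10. Among the outer arm heavy chains, which drive beat frequency, they were 0.93 for Dnah11, 0.42 for Dnah5 and 0.15 for Dnah9. The outer arm intermediate chains Dnaic1 and Dnaic2 were at -0.009 and -0.23. Neither the intermediate chains nor Dnah10 shared the direction of most heavy chains. The radial spoke head gene Rsph4a differed by 1.15 and Rsph9 by 0.26. In the central pair apparatus the differences were 0.99 for Hydin, 0.85 for Spag17, 0.78 for Spef2, 0.71 for Spag6 and 0.43 for Spag16. The spoke and central pair genes were all higher in KO, none past the threshold. Among them Spag17 entered the test only through KO at 12 weeks, so its direction supports nothing. Spag16 had means of 3.08 in KO at 6 weeks and 3.33 in WT at 12 weeks, under the filter level. Without the KO arrays of 12 weeks its mean would fall under that level, so its direction supports nothing either. Spag6 has a near-identical copy, Spag6l, and its value may hold signal from both. Ak7, an adenylate kinase of the axoneme, differed by 1.05. The nexin link genes Iqca and Drc1 differed by 0.40 and 0.38. Iqca too had means under the filter level, 3.14 in KO at 6 weeks and 3.40 in WT at 12 weeks. It likewise passed the filter only with the KO arrays of 12 weeks, so its direction supports nothing. Ccdc40 and Ccdc39, which form the ruler that spaces arms and spokes, differed by 0.39 and 0.29. The tektins, filaments inside the doublets, were at 0.43 for Tekt1, 0.17 for Tekt2 and -0.19 for Tekt4, and the docking protein Ccdc114 was at -0.13. Lrrc6 was at 0.25, the centriolar satellite and axonemal protein Ccdc113 at 0.44 and the regulator Rfx2 at 0.14. The untested Armc4 had means of 2.89 ± 0.34 (SD, n = 5) in WT and 3.53 ± 0.61 (n = 6) in KO. Several WT means of 12 weeks, such as 3.16 for Dnah12, 3.20 for Spag17 and 3.43 for Dnah6, lay near or under the filter level. Background levels were not used here, so the size of these differences is uncertain.

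**Figure D3:**
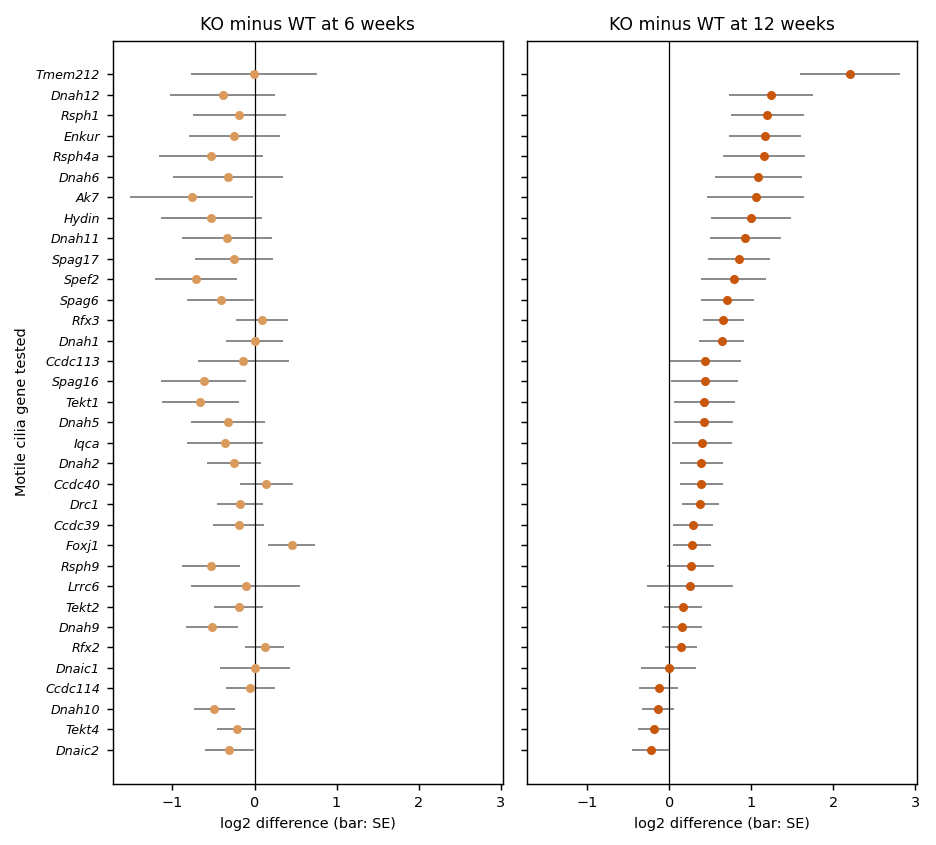
Log2 difference of KO minus WT at 6 weeks (left) and 12 weeks (right) for the 34 genes tested, with the SE of the limma fit as bars, ordered by the 12-week difference. At 12 weeks Tmem212 stands apart at 2.20 and most genes lie right of 0; at 6 weeks most lie left of 0, the greater part of these with bars that cross it.

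The 12-week difference was not the same size in all arrays. Without KO replicate 5 the median over the 35 genes was 0.30, with 29 genes higher, and it ranged from 0.30 to 0.58 when each array was left out in turn. The 12-week arrays were deposited in 2 runs of consecutive numbers, and nothing in the labels says that these are batches. In the first run the WT arrays (replicates 1 and 2) were female and the KO arrays (1 to 3) male, and in the second the WT arrays (3 to 5) were male and the KO arrays (4 to 6) female. The median difference was 0.18 in the first run, with 25 of 35 genes higher in KO, and 0.75 in the second, with 30 of 35 higher. The scores of KO and WT did not overlap within either run. Taken singly, 13 of the 35 genes in the first run and 19 in the second had every KO array above every WT array. Of all genes tested, 15.0% in the first run and 9.5% in the second did so. Among females the median difference was 0.91, with 32 of 35 genes higher. Among males it was 0.22, with 24 of 35 higher and overlapping scores. Tmem212 was higher in KO in each of these subsets, by 1.85 and 2.65 within the runs, 3.11 among females and 1.38 among males. The KO females were KO replicates 4 to 6 of the second run. Within each run the genotypes differed in sex, and within each sex they differed in run. The parts of genotype, sex and run in the size of any one of these subsets cannot be told apart.

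At 6 weeks the leaning was the other way and rested on 1 array. The median difference of KO minus WT over the 35 genes was -0.25, against -0.003 over all genes tested, with 6 genes higher and 29 lower in KO (49.6% of all genes tested were higher). Without WT replicate 4 it was 0.20, with 25 of 35 genes higher in KO. Limma with Benjamini-Hochberg adjustment called 0 of 34 genes, where it called 7 in all (0.043%), and 0 of 34 passed an unadjusted p under 0.05 (3.26% of all genes higher and 2.17% lower did). Groups without overlap numbered 0 of 34 in either direction (2.71% higher and 2.36% lower among all genes).

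The largest negative differences at 6 weeks were -0.77 for Ak7, -0.71 for Spef2, -0.66 for Tekt1 and -0.62 for Spag16, and the largest positive one was 0.45 for Foxj1. The smallest p at 6 weeks belonged to Dnah10, which read 3.65, 4.01, 4.29 and 4.15 in WT and 3.79, 3.31 and 3.50 in KO. The KO arrays were low, with overlap through WT replicate 1, and the difference was -0.49 ± 0.25 (SE; limma adjusted p = 0.94). It was 0.017 when the brightest of its 3 probe sets stood for the gene, and 2 of the 3 were higher in KO. Dnah9 read 5.66, 5.46, 5.64 and 6.74 in WT and 5.70, 4.81 and 5.56 in KO. Here WT replicate 4 alone was high, and the difference was -0.52 ± 0.31 (SE; limma adjusted p = 0.97). Tmem212, so different at 12 weeks, read 5.48, 4.83, 4.95 and 8.84 in WT and 6.92, 5.12 and 6.03 in KO at 6 weeks. The high WT array balanced the rest and the difference was -0.004 ± 0.77 (SE; limma adjusted p = 1.0), which became 0.93 without that array.

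Foxj1, the master regulator of motile ciliogenesis, passed the threshold in none of the comparisons. It read 4.49, 5.10, 4.64 and 5.92 on the WT arrays and 5.27, 5.91 and 5.28 on the KO arrays of 6 weeks. At 12 weeks it read 5.23, 5.70, 5.28, 4.86 and 5.38 in WT and 5.34, 5.48 and 5.95 (lowest, median, highest) in KO. Groups overlapped throughout, with WT replicate 4 the highest WT array of 6 weeks here too. Exact two-sided permutation tests of the difference of means gave p = 0.34 for KO against WT at 6 weeks and p = 0.13 at 12 weeks. The exact tests of stage gave p = 0.46 in WT and p = 0.67 in KO. Adjusted over these 4 exact tests the values were 0.61, 0.52, 0.61 and 0.67, and the smallest p the designs allow were 0.057, 0.0043, 0.016 and 0.024. The log2 differences, in the same order, were 0.45, 0.28, 0.25 and 0.076. Of its 3 probe sets 1 was higher in KO at 6 weeks. All 3 were higher at 12 weeks, by 0.29 to 0.77.

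**Figure D4:**
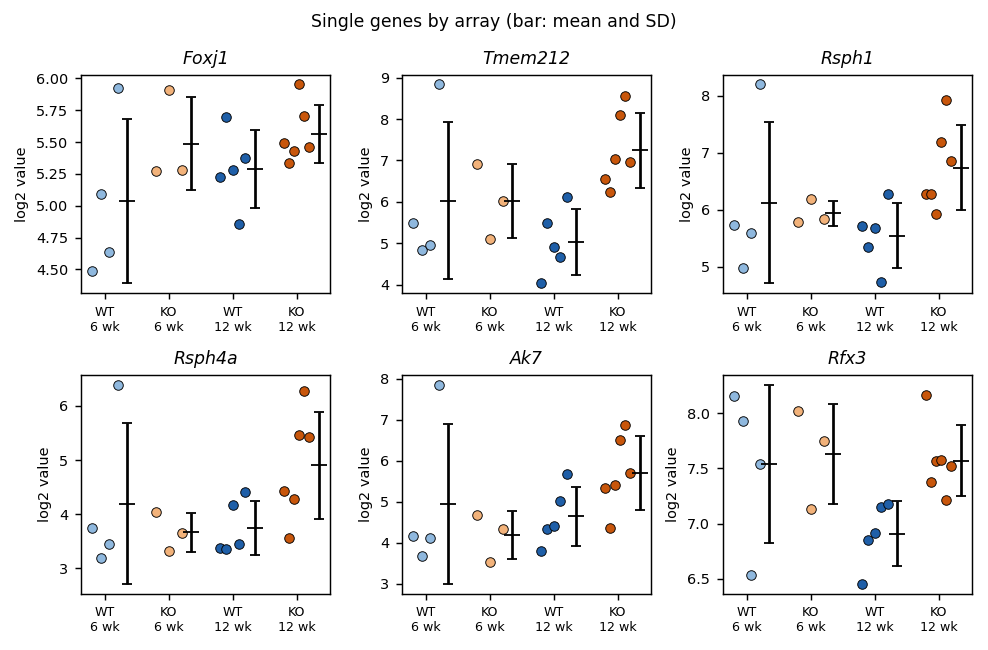
Log2 values of Foxj1, Tmem212, Rsph1, Rsph4a, Ak7 and Rfx3 on each array by group, with the group mean and SD to the right of the points; each panel has its own axis, which does not start at 0. In Tmem212, Rsph1, Rsph4a and Ak7 one WT array of 6 weeks lies far above the others, while in Rfx3 it does not.

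Between stages the motile cilia genes of WT mice were lower at 12 than at 6 weeks only as long as WT replicate 4 was counted. The median difference was -0.31 against 0.009 over all genes tested, with 5 genes higher and 30 lower (51.2% of all genes were higher). Without that array it was 0.13, with 22 genes higher. Limma called 0 of 34 genes after adjustment, where it called 3 in all (0.0184%); at an unadjusted p under 0.05, 2 of 34 were lower (5.88%, against 4.51% of all genes) and 0 higher (against 3.96%). These 2 were Rfx3 and Spag6. Rfx3 read 8.16, 7.93, 6.54 and 7.54 in WT at 6 weeks, and with the 12-week values given above the groups overlapped through replicate 3. Its difference was -0.63 ± 0.28 (SE; limma adjusted p = 0.56). Spag6, a central pair protein, read 6.15, 5.76, 5.14 and 7.17 at 6 weeks and 4.86, 5.23, 5.22, 5.21 and 5.81 at 12 weeks, again with overlap. Its difference was -0.79 ± 0.36 (SE; limma adjusted p = 0.57). Drc1, a nexin link subunit resting on 1 probe set, differed by -0.49 ± 0.25 (SE; limma adjusted p = 0.61).

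In KO mice the genes leaned higher at 12 than at 6 weeks, with a median difference of 0.40 against 0.016 over all genes tested, with 31 genes higher and 4 lower (52.2% of all genes were higher). Limma called 0 of 34 after adjustment, where it called 1 gene in all (0.00614%), and at an unadjusted p under 0.05, 3 were higher (8.82%, against 4.7% of all genes) and 0 lower (against 2.78%). Spag17, a central pair protein, read 3.40, 2.81 and 2.75 at 6 weeks and 3.48, 3.81 and 5.07 (lowest, median, highest) at 12 weeks. Its stages did not overlap (1 of 34 genes, 2.94%, where 2.28% of all genes were higher without overlap). Spag17 entered the test only through KO at 12 weeks, with a mean of 4.05 there and means of 2.98 to 3.23 in the other groups, so this separation supports nothing by itself. The difference was 1.07 ± 0.44 (SE; limma adjusted p = 0.63), with all 6-week values just under or well under the filter level. Ak7 read 4.68, 3.54 and 4.34 at 6 weeks and 4.37, 5.56 and 6.87 at 12 weeks, with overlap, and differed by 1.52 ± 0.69 (SE; limma adjusted p = 0.66). Rsph4a differed by 1.24 ± 0.58 (SE; limma adjusted p = 0.67). The median of the set fell to 0.26 without KO replicate 5 of 12 weeks.

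The test of whether the genotype difference changed with stage gave a median of 0.74 over the 35 genes, against 0.019 over all genes tested, with 32 genes positive (52.1% of all genes were). Limma called 0 of 34 genes after adjustment and 0 of 16281 in all (0.0%), and 3 of 34 were positive at an unadjusted p under 0.05 (8.82%, against 2.87% of all genes) and 0 negative (against 2.32%). These were Spef2, a central pair protein, at 1.50 ± 0.64 (SE), Tmem212 at 2.20 ± 0.98 and Spag6 at 1.12 ± 0.52, each with a limma adjusted p of 0.92. The count of 3 was 0 without WT replicate 4 of 6 weeks and 12 without WT replicate 2 of that stage. Spef2 read 3.50, 3.71, 3.95 and 5.93 in WT and 3.39, 3.99 and 3.30 in KO at 6 weeks. At 12 weeks it read 3.65, 3.44, 3.80, 3.19 and 3.98 in WT and 3.79, 4.20 and 6.00 in KO. Its 2 highest values were again WT replicate 4 of 6 weeks and KO replicate 5 of 12 weeks. Without the former the median of the set was 0.38, with 26 genes positive, and without both it was 0.23.

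The genes differed in how closely they followed each other. Pearson's r of each gene with the mean of the other measured genes, over the 18 arrays, was at least 0.85 for 18 of 35 genes, between 0.5 and 0.85 for 9 and under 0.5 for 8. These are descriptions, since the points share arrays and 2 arrays weigh heavily. The median r was 0.86, and 0.57 over the 16 arrays without the 2 of highest score. The closest followers were Dnah6 (r = 0.97), Hydin (0.95), Dnah12 (0.95), Rsph4a (0.95) and Ak7 (0.93), which are structural or energy-supplying parts of the axoneme. Tmem212 stood at 0.91 with all arrays and 0.92 without those 2. Foxj1 followed with r = 0.56, Rfx2 with 0.34 and Rfx3 with 0.14. All 3 regulators thus ranked below most of the genes they are known to switch on. Also under 0.5 were Ccdc114 (0.48), Drc1 (0.44), Dnaic2 (0.27), Tekt2 (0.26), Tekt4 (0.15) and Dnah10 (-0.049). Rfx3 is also used outside ciliated cells. The span of a gene from its lowest to its highest array was 1.67 to 4.80 among the 18 closest followers, and 1.11 for Tekt4 and 1.23 for Dnah10. The array name Dnahc3, which cannot be assigned to Dnah3 or Dnah12, read 2.89 to 4.26 and followed the score with r = 0.83.

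Outside the set, 53 of 16247 other genes (0.326%) followed the score with r of at least 0.85. Of 79 other motile cilia genes tested, a list written from textbook knowledge, 21 did so, and their median r was 0.76. The 8 genes closest to the score were Cfap61 (r = 0.96), Cfap43 (0.96), Cfap206 (0.96), Lbp (0.95), Cfap54 (0.95), Cdhr3 (0.95), Ccdc146 (0.94) and Ppp1r32 (0.94). Without the 2 arrays of highest score these 8 ran from 0.72 for Ccdc146 to 0.91 for Cfap43. Cfap61, Cfap43, Cfap206, Cfap54 and Ccdc146 belong to that list, and Lbp, Cdhr3 and Ppp1r32 do not. Cfap43, a cilia and flagella associated protein, read 6.54 on WT replicate 4 and 3.56 to 3.78 on the other WT arrays of 6 weeks, and 5.86 on KO replicate 5. Lbp, which encodes a lipopolysaccharide-binding protein, read 9.66 on that WT array, 4.85 to 6.01 on the other WT arrays of 6 weeks, and 8.23 on KO replicate 5. Cfap43 and Lbp were picked by their likeness to the score, so high values on these arrays follow from the choice and are not separate evidence.

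Other cilia and ependyma lists leaned the same way at 12 weeks. The other motile cilia genes had a median KO minus WT difference of 0.44, with 65 of 79 higher and 14 lower, and 0 called. Nme5 and Spa17, the brightest of them, differed by 0.90 and 0.99. Intraflagellar transport genes, which carry cargo in primary and motile cilia alike, had a median of 0.22 with 22 of 27 higher and 0 called; Ift20 and Kifap3 were at -0.026 and -0.13. Ependymal markers chosen apart from the set had a median of 0.72 with 20 of 20 higher and 0 called. Of this list Cfap126 and Ccdc153 are themselves axonemal, Cfap126 stands also among the other motile cilia genes and Ecrg4 among the choroid plexus genes. Clu and S100b, which astrocytes also express, differed by 0.23 and 0.73 (limma adjusted p = 0.62 and 0.10). At 6 weeks these lists had medians of -0.21, -0.12 and 0.13 in the order given.

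The score of the ependymal markers, computed in the same way, was -0.77 to -0.016 on the WT arrays and -0.23 to 1.18 on the KO arrays of 12 weeks. It was 1.13 on WT replicate 4 of 6 weeks against -0.87 to -0.34 on the other WT arrays of that stage. Choroid plexus genes scored 2.66 on that array, against -0.53 to -0.05 on the other WT arrays. Ttr, the transthyretin gene of choroid plexus, read 12.98 there and 10.81 to 12.18 on the others, and Enpp2 read 12.06 against 8.89 to 10.32. Klotho (Kl), chosen for naming after its values were seen, read 9.77 against 5.01 to 5.38. The same array had the highest oligodendrocyte score of all arrays, 1.77, against -0.031 to 1.44 on the other WT arrays of 6 weeks. Its neuronal score was -1.24, against -0.45 to 0.72 on them. KO replicate 5 of 12 weeks had the highest oligodendrocyte score of its group, 0.60, and the lowest neuronal score, -0.41. Other arrays went the other way. KO replicate 2 of 6 weeks had an oligodendrocyte score of 1.14 and the lowest neuronal score of all arrays, -1.56. Its motile cilia score was -0.36. WT replicate 3 of 6 weeks had an oligodendrocyte score of 1.44 and a motile cilia score of -0.37. At 12 weeks 20 of 22 choroid plexus genes were higher in KO and 0 were called, with a median of 0.50. Their scores were -0.87 to 0.12 in WT and -0.58 to 1.07 in KO. KO replicates 5 and 6 scored 0.83 and 1.07, while KO replicate 4, the third highest array for motile cilia genes at 0.42, scored -0.43 for choroid plexus. The part of choroid plexus RNA, and of the myelin and neuron content of these arrays, in the motile cilia differences was not tested.

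**Figure D5:**
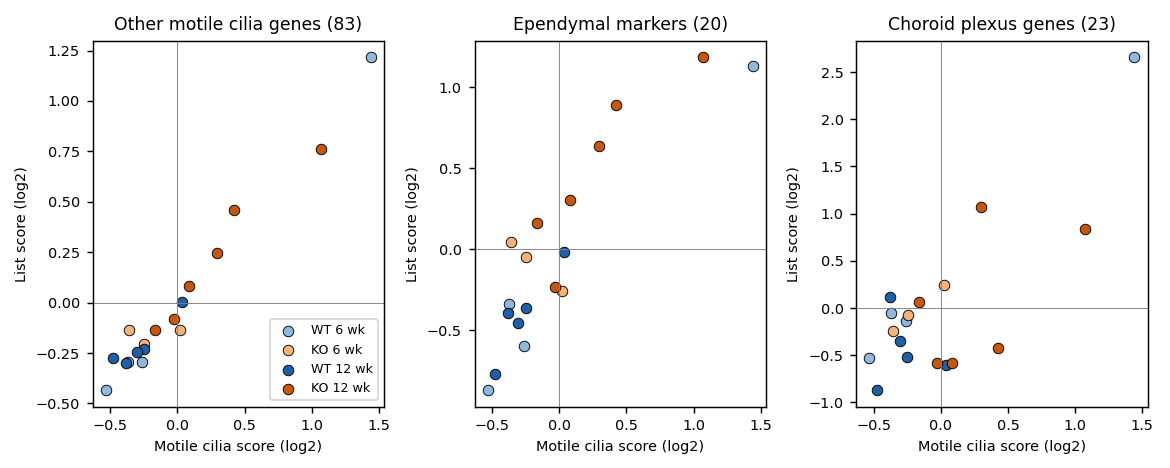
Score of the other motile cilia genes, the ependymal markers and the choroid plexus genes (vertical axes, log2, centred on each gene's mean; genes measured in brackets) against the score of the 35 motile cilia genes (horizontal axis), 1 point for each array. The other motile cilia genes rise with the score over all arrays, while the choroid plexus panel has WT replicate 4 of 6 weeks alone at 2.66 and KO replicate 4 of 12 weeks at 0.42 and -0.43.

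Astrocyte and microglial genes differed between the genotypes at 12 weeks as well. Of 13 astrocyte genes 13 were higher in KO, with a median of 0.55 and Slc4a4 called at 1.01 (limma adjusted p = 0.010). Of 12 microglial genes 11 were higher, with Fcrls, Itgam, P2ry12, Siglech and Tmem119 called higher and Trem2 called lower, and a median of 1.29. The astrocyte scores were -0.50 to -0.21 in WT and 0.005 to 0.38 in KO, and the microglial scores -0.84 to -0.45 and -0.028 to 0.79. Over the 18 arrays the median r with the motile cilia score was 0.014 for astrocyte genes, 0.14 for microglial genes, 0.30 for oligodendrocyte genes and -0.31 for neuronal genes, against 0.76 for ependymal markers and 0.70 for choroid plexus genes. The part of these other cell types in the 12-week difference was not tested.

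At the level of single probe sets the set as a whole leaned the same way, though not every gene did. The 35 genes rest on 925 probe sets, of which 665 (71.9%) were higher in KO at 12 weeks and 317 (34.3%) at 6 weeks. Over all 212097 probe sets with 1 symbol these shares were 49.6% and 48.9%. WT replicate 4 of 6 weeks held the highest value of 389 probe sets (42.1%) and KO replicate 5 of 12 weeks that of 143 (15.5%), against 8.51% and 4.67% of all these probe sets. At 12 weeks all 9 probe sets of Rsph1, all 6 of Rsph4a, all 6 of Enkur and all 3 of Foxj1 were higher in KO. So were 18 of 19 for Rfx3 and 32 of 35 for Dnah6. Against this, 0 of 3 probe sets of Dnah10 and 4 of 15 of Dnaic2 were higher. At 6 weeks 2 of 3 probe sets of Dnah10 and 1 of 3 of Foxj1 were higher in KO, so most went against the sign of the gene value. Probe sets of a gene share their RNA and are not replicates.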

How the data were processed

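Per the labels' protocols, column-purified RNA was amplified by a method made for small amounts and given a biotin label; each of 18 samples has 1 array. The measurements are log2 values of probe sets as the authors deposited them (241576 probe sets, 0.732 to 13.674); background correction, normalization and summary are not given in the sources used here, and array background was not used. Array medians ran from 5.26 to 5.41, so no further normalization was made. The number of arrays limits the precision.

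Of the probe sets 212097 had 1 gene symbol, 4475 several and 25004 none. Only the first were used, and 2742 symbols were updated through a RefSeq table of GRCm38.p6, in which 20299 of 20352 genes were found. A gene's value is the median of its probe sets. The dimmest 20% of genes (mean log2 of 3.41 or less) were not tested.

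Samples were grouped by labelled genotype and stage. A limma model (3.58.1, R 4.3.3) with 4 group means was fitted to all 18 arrays (14 residual and 5.61 prior degrees of freedom), two-sided, with Benjamini-Hochberg adjustment over 16281 genes. Scores and correlations are descriptions without a test. The script was tested on simulated data. The alternatives changed the filter, quantile normalization, how probe sets were summarised, the groups fitted, replicate block, intensity trend, array weights, sex, deposition run and leaving out each array.

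The set of genes, the 9 marker lists and the tests were chosen with earlier results of these data known. The rule for named genes gives values for Foxj1, Tmem212 and the 2 genes of smallest p in each comparison, full statistics for the 3 of smallest p, the 8 genes most like the score with clone and predicted names passed over, and the 2 brightest and the called genes of each list. Of the lists, the 14 genes of subventricular zone stem cells and neuroblasts had a median KO minus WT difference of 0.11 at 12 weeks with 0 called, the 14 neuronal genes -0.15 with 0 called and the 14 oligodendrocyte genes 0.25 with 0 called. Tables and plots were made with Python 3.11.15, numpy 2.4.6, pandas 2.3.3, scipy 1.17.1 and matplotlib 3.10.9.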

Additional observations from a re-analysis of the deposited data

Results flagged for a closer look

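A test for a single array far from the rest of its group (Dixon's ratio at the 95% level) was run on the score and on each gene in the groups of 4 to 6 arrays, 108 groups in all. It marked 20 of them, where chance marks about 1 in 20 groups.

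Of the 20 marks, 12 are high values on WT replicate 4 of 6 weeks. There the motile cilia score was 1.44, and the log2 values were 6.74 for Dnah9, 6.40 for Dnah11, 6.52 for Dnah6, 6.39 for Dnah12 and 5.73 for Dnaic1. The remaining ones on that array were 7.50 for Ccdc39, 4.98 for Spag17, 6.57 for Hydin, 7.79 for Enkur, 8.84 for Tmem212 and 7.85 for Ak7. The genes share the array and are not separate evidence.

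KO replicate 5 of 12 weeks was high for Lrrc6, a factor of dynein arm assembly, at 6.17 and for Spef2 at 6.00. KO replicate 2 of 12 weeks was low for Rfx2 at 4.45. WT replicate 5 of 12 weeks was high for Dnah5 at 4.41, Dnah6 at 4.34 and Tekt4 at 4.23. WT replicate 2 of 12 weeks was high for Spag17 at 3.84, and WT replicate 2 of 6 weeks was low for Tekt4 at 3.46.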

How the results depend on the processing

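The medians over the 35 genes kept their direction under the planned settings that used all arrays, but with array weights the 6-week median was -0.014 (16 of 35 genes higher) and the WT stage median -0.091 (12 higher). Leaving out each array in turn, they ran from -0.49 to 0.20 for KO against WT at 6 weeks, 0.30 to 0.58 at 12 weeks, -0.50 to 0.13 for stage in WT, 0.26 to 0.55 for stage in KO and 0.38 to 0.96 for the interaction. Without the 2 arrays of highest score, a setting chosen after seeing the data, the 6-week median was 0.20 and the WT stage median 0.13. The number of genes of the set passing was 0 in all 5 comparisons and 1 (Tmem212) at 12 weeks with only 2 groups fitted, with array weights and without those 2 arrays, and 0 to 1 when each array was left out; in the other comparisons it stayed 0. Genes of the set with an unadjusted p under 0.05 numbered 0 to 5 for stage in WT and 0 to 10 for stage in KO when each array was left out.

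Some differences turned sign. Dnah10 at 6 weeks was 0.017 with the brightest probe set. Tmem212 at 6 weeks was 0.42 with a replicate block, 0.59 with array weights, 0.11 with sex, 0.93 without WT replicate 4 (and without both high arrays) and 0.45 without KO replicate 2, within -0.45 to 0.93 over all left-out arrays. Foxj1 between stages in KO was -0.026 with a replicate block, -0.031 and -0.026 without KO replicates 1 and 3 of 6 weeks and -0.001 without KO replicate 4 of 12 weeks, with a highest value of 0.29. Foxj1 in the interaction was 0.23 with the mean of probe sets, 0.006 without WT replicate 1 and 0.033 without KO replicate 2 of 6 weeks, with a lowest value of -0.47. The cause of these was not tested.

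Over all genes, 70 passed at 12 weeks. This was 107 with the mean of probe sets, 233 with only 2 groups fitted, 190 with array weights and 21 with a replicate block. It was 74 without the 2 arrays of highest score and 121 without WT replicate 4 of 6 weeks. Leaving out each array, it ran from 15 to 126. At 6 weeks 7 passed, 0 with only 2 groups fitted or with a replicate block, and 0 to 11 leaving out each array. Same-numbered WT and KO arrays deviated together in 1 of 8 pairs (r over 0.1; range -0.36 to 0.24), and 5 of the 8 WT arrays correlated best with the KO array of their own number, a hint from the data and not the design. The numbers were not taken to pair the samples. With the replicate block the medians of the set were -0.093, 0.40, -0.48, 0.15 and 0.57 in the order above, with 0 genes passing in each.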
